A study of Caenorhabditis elegans with 36 samples.

Results

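Collagen folding in the endoplasmic reticulum (ER) is carried by a small group of enzymes and chaperones, and 10 of their genes in Caenorhabditis elegans are described here: the protein disulfide isomerase genes pdi-1, pdi-2, pdi-3 and pdi-6, the prolyl 4-hydroxylase alpha subunit genes dpy-18 and phy-2, the lectin chaperone genes cnx-1 and crt-1, and the ER Hsp70 genes hsp-3 and hsp-4. They were found by gene symbol in the annotation of the array. Of the 10 genes, 9 had a usable probe, 1 probe each, among 15732 genes and probes tested in all. pdi-2 had no probe under its symbol and was not analysed here.

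The study immunoprecipitated the microRNA silencing complex (miRISC) through its GW182-family subunit AIN-2 and measured the mRNA that came with it. The mRNA in the anti-GFP immunoprecipitate (IP) was set against total RNA of the same lysate (the input) at 5 stages. All animals carried 1 integrated, single-copy AIN-2::GFP transgene, and no IP from animals without the tag was analysed here. Each of 18 lysates, from populations grown and harvested independently, gave 1 IP and 1 input. Egg samples were purified eggs frozen without feeding (4 lysates). Larvae were taken after 4 hours on food for L1 (4 lysates), 21 hours for L2 (3 lysates), 30 hours for L3 (4 lysates) and 42 hours for L4 (3 lysates). The samples are whole animals, so every tissue contributes to each value.

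Nematode cuticle collagens are made in bulk in the epidermis before each molt. In the ER their chains are hydroxylated on proline by prolyl 4-hydroxylase, whose alpha subunits work bound to a protein disulfide isomerase, and their chains are joined by disulfide bonds before the triple helix leaves the cell. Calnexin and calreticulin hold glycoproteins while they fold, and the BiP-type Hsp70 proteins bind unfolded chains and are targets of the unfolded protein response.

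Levels are quantile-normalized log2 array intensities, so a difference of 1 is a doubling. A level of 1 probe is not set against that of another. A gene is said to be called when its Benjamini-Hochberg adjusted p, over all 15732 genes and probes, was under 0.05 in limma. Values after ± are standard errors from the fit, or SDs where so marked. Spots above background made up 31% to 70.4% of an IP array channel and 51.3% to 71.4% of an input channel, and the number of arrays limits the precision. Across features, r between replicates was 0.711 to 0.938 for IPs and 0.819 to 0.968 for inputs. In 4 lysates (Egg replicate 4, L3 replicates 2 and 3, L4 replicate 1) the input had from 67 to 166 spots close to full scanner scale, against 0 to 13 in the other 14 inputs. Several of the ER genes had unusual inputs in those 4 lysates, so results that rest on them are given with and without them. Leaving them out was added after the data had been seen, so calls that appear only then are descriptions. The 4 were picked by their inputs alone, and L1 replicate 2, whose IP had 69 such spots, was kept. As a check on staging, the mean input level of 13 measured sperm genes lay between -0.194 and 2.0 at L4. It was -4.29 to -0.662 at L3, where the inputs differed widely, and -5.05 to -3.76 at Egg, L1 and L2. The mean input levels of 8 early embryo genes overlapped between eggs and larvae. The part of the sperm genes in the results at L3 and L4 was not tested.

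Over the mean of the 5 stages, 4 of the 9 genes were lower in the IP than in the input and 0 were higher. They were pdi-3, hsp-3, crt-1 and phy-2. Of all features tested, 25.1% were called lower and 19.2% higher. The median difference of the 9 genes was -0.214, against -0.0896 for all features. These medians moved with the scaling: the median of the 9 genes was -0.0848 with loess within lysates and -0.45 with columns centred, and that of all features was 0.135 for values as deposited. The other 5 genes, pdi-1, pdi-6, dpy-18, cnx-1 and hsp-4, had mean differences between -0.21 and 0.14 that were not called. Among them pdi-1 and cnx-1 had differences of opposite sign at different stages, which a mean over stages cancels.

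**Figure D1:**
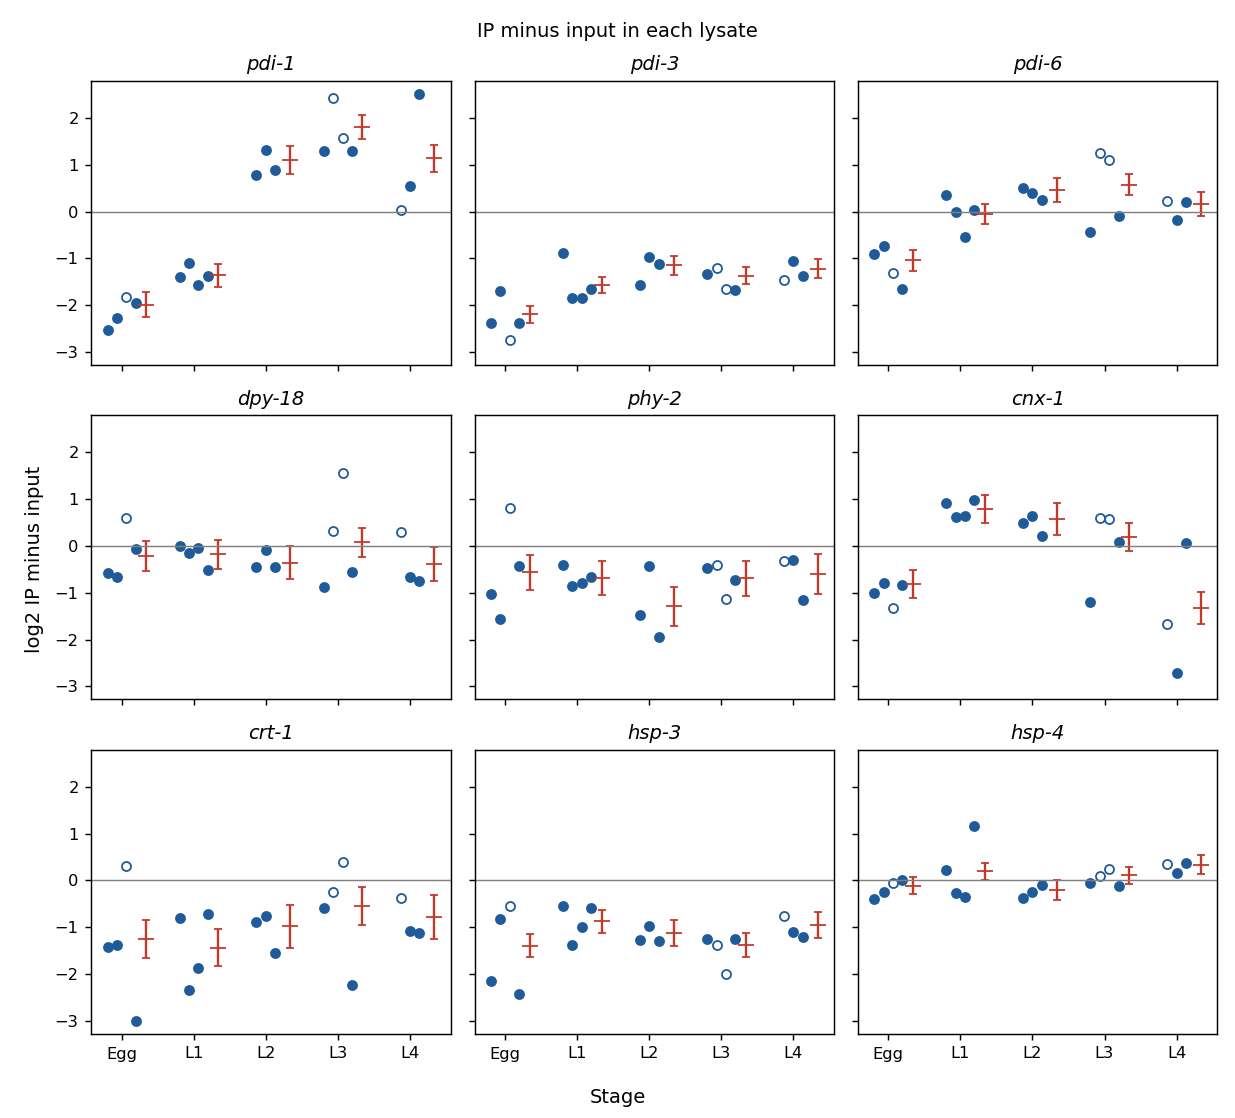
log2 IP minus input (vertical axis) in each lysate by stage (horizontal axis) for the 9 measured genes. Points are lysates, open where the input had many spots close to full scanner scale, and red bars are the fitted stage value ± standard error. pdi-1 lies above 0 in all 10 lysates from L2 on and below 0 in all 8 Egg and L1 lysates, while pdi-3 and hsp-3 lie below 0 in all 18.

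pdi-1 encodes a protein disulfide isomerase, an enzyme that makes and rearranges disulfide bonds. Its mRNA was lower in the IP than in the input in eggs and L1 and higher in the IP from L2 on. In the Egg lysates the IP level was 0.96, 0.69, -0.86 and 0.17, against 3.50, 2.96, 0.95 and 2.13 in the inputs. In L1 it was 0.60, 0.89, 0.14 and 0.44 in the IPs, against 2.01, 1.99, 1.70 and 1.82 in the inputs. Within each of these 8 lysates the IP was the lower, and in L1 the IPs and inputs did not overlap.

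From L2 on the order of IP and input was the opposite. In L2 the level of pdi-1 was 4.10, 4.28 and 4.13 in the IPs, against 3.33, 2.96 and 3.24 in the inputs. In L3 it was 4.90, 3.65, 4.24 and 4.02 in the IPs, against 3.61, 1.22, 2.67 and 2.73 in the inputs. The IP was the higher in all 7 of these lysates, and the IPs and inputs of a stage did not overlap. In L4 it was 2.68, 3.98 and 4.42 in the IPs, against 2.64, 3.43 and 1.90 in the inputs. The 3 L4 lysates had the same sign with very different sizes. L4 replicate 10, the only one of them with the IP labelled in Cy5, had the largest difference (2.51, against 0.03 and 0.54). At L2 and L3 too the lysate with the IP in Cy5, replicate 2 at both, had the largest difference (1.32 and 2.43).

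limma called pdi-1 at every stage. The difference was -1.99 ± 0.26 at Egg (adjusted p = 8.81e-06) and -1.36 ± 0.25 at L1 (adjusted p = 0.00034). It was 1.10 ± 0.29 at L2 (adjusted p = 0.0126), 1.80 ± 0.26 at L3 (adjusted p = 3.57e-05) and 1.14 ± 0.29 at L4 (adjusted p = 0.00844). The L2 call did not pass in limma without L2 replicate 1, 2 or 3 (1.11, 1.16 and 1.05, with adjusted p = 0.0804, 0.0686 and 0.0704). The L4 call did not pass without L4 replicate 10, where the difference was 0.44 (adjusted p = 0.363, limma). In the lysates with the IP in Cy3 alone, neither call passed (0.83 at L2 and 0.29 at L4, with adjusted p = 0.0754 and 0.521, limma).

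The IP to input ratio of pdi-1 differed between stages (F = 43.81, adjusted p = 4.06e-06 in limma), the 7th smallest p of the 15732 features. Across stages, 3 of the 9 genes were called in this F test, against 2.68% of all features, and the other two are pdi-6 and cnx-1. Between consecutive stages the step of pdi-1 from L1 to L2 was called: L2 minus L1 was 2.46 ± 0.38 (adjusted p = 0.00635, limma), with 0.0826% of all features called higher in that step. The limma call of this step did not pass without L2 replicate 1 or L2 replicate 2 (2.47 and 2.52, with adjusted p = 0.0598 and 0.0772). Without the 4 lysates with inputs close to full scale it was 2.43 (adjusted p = 0.0047, limma). The steps L1 minus Egg (0.62), L3 minus L2 (0.70) and L4 minus L3 (-0.67) of pdi-1 were not called.

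The IP level of pdi-1 moved with stage, and whether a change of its input was called depended on the scaling. The mean IP level was 0.24 ± 0.81 in eggs and 0.52 ± 0.31 in L1 (SD, n = 4 each). It was 4.17 ± 0.10 in L2 (SD, n = 3), 4.20 ± 0.53 in L3 (SD, n = 4) and 3.69 ± 0.91 in L4 (SD, n = 3). The 10 IPs from L2 on lay between 2.68 and 4.90, and the 8 Egg and L1 IPs between -0.86 and 0.96, with no overlap. The mean input level was 2.38 ± 1.11, 1.88 ± 0.15, 3.18 ± 0.19, 2.56 ± 0.99 and 2.66 ± 0.76 at the same stages (SD), and inputs from L2 on overlapped with those of eggs, while the 3 L2 inputs, 2.96 to 3.33, all lay above the 4 L1 inputs, 1.70 to 2.01. For L2 minus L1 the IP level differed by 3.69 ± 0.44 (adjusted p = 5.61e-05, limma), the 1 member called in a step where 0.992% of all features were called higher. In the lysates whose input titles are spelled tot rather than Tot, which keep 1 L1 lysate, that IP difference was 3.54. With all lysates the input differed by 1.22 ± 0.53 in that step (adjusted p = 0.347, limma). With columns centred in place of quantile normalized, the input was called in the step (1.98, adjusted p = 0.029) and over the stages (F = 4.73, adjusted p = 0.0387, limma).

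Of the 15732 features, pdi-1 was the 1 feature called lower at Egg and L1 and higher at L2, L3 and L4, and 0 had the opposite pattern. That pattern was written down after the values of pdi-1 had been seen. A looser form, lower in at least 1 early stage and higher in at least 1 later one, held for 44 features, and its opposite for 55.

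**Figure D2:**
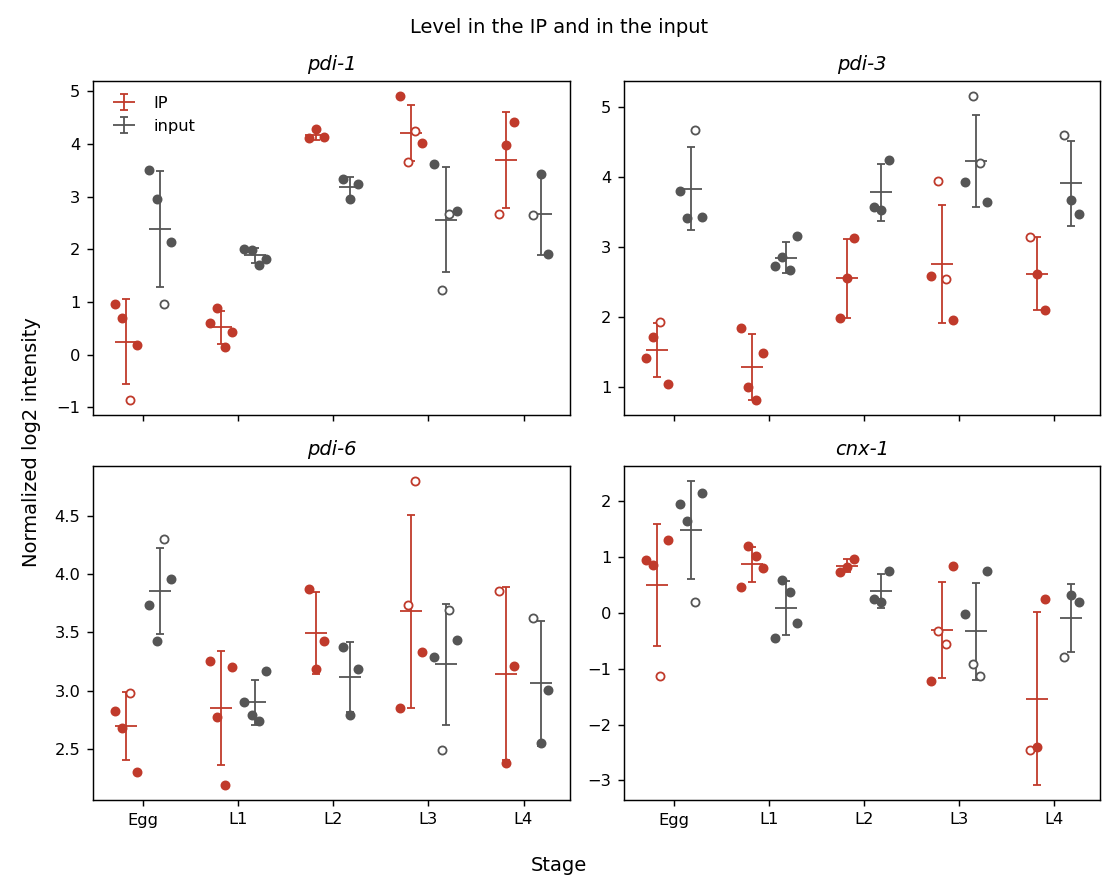
Normalized log2 intensity (vertical axis) of pdi-1, pdi-3, pdi-6 and cnx-1 in the IP (red, left) and the input (grey, right) of each lysate by stage (horizontal axis), with the stage mean ± SD. Open points are the 4 lysates whose input had many spots close to full scanner scale. The IPs of pdi-1 lie at or above 2.68 from L2 on and at or below 0.96 in eggs and L1.

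pdi-6 encodes another ER disulfide isomerase. It was lower in the IP in eggs, where the 4 differences were -0.91, -0.75, -1.32 and -1.66 and the IPs, 2.30 to 2.98, lay below all inputs, 3.43 to 4.30. The Egg difference was -1.04 ± 0.22 (adjusted p = 0.00186, limma). That call did not pass with columns centred (-1.09, adjusted p = 0.109, limma) or without the pairing of IP and input (adjusted p = 0.0514, limma). At L1, L2, L3 and L4 the fitted differences were -0.05, 0.45, 0.57 and 0.16, and none was called. At those stages the IPs and inputs overlapped.

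The ratio of pdi-6 differed between stages (F = 8.40, adjusted p = 0.0243 in limma). That call did not pass without Egg replicate 2, 4 or 5 (adjusted p = 0.0902, 0.0511 and 0.109). With columns centred, without the trend or without the pairing of IP and input it did not pass (adjusted p = 0.623, 0.169 and 0.682, limma). The same held with the IP in Cy3 (adjusted p = 0.313, limma). With titles spelled tot, which keep 1 L1 lysate, the F was 5.24. No single step between stages was called with all lysates. L1 minus Egg of the ratio stayed uncalled in 28 of 31 alternatives. It was called without the 4 lysates set apart (1.0, adjusted p = 0.0371, limma) and for values as deposited (1.09, adjusted p = 0.03, limma). With spots over 65000 scanner steps left out, a setting also added after the data had been seen, it was called too (1.16, adjusted p = 0.0497, limma). Over the 18 lysates, r between IP minus input differences was 0.719 for pdi-6 with pdi-1 and 0.709 for pdi-6 with pdi-3. It was 0.606 for pdi-1 with pdi-3. These were the highest values among all pairs of the measured collagen folding and chaperone genes. The other pairs ran from -0.345 (phy-2 with cnx-1) to 0.506 (pdi-6 with cnx-1), with pdi-1 and hsp-3 at -0.0488. These lysates share stages, dyes and arrays, and the correlations are descriptions.

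pdi-3, the third measured disulfide isomerase gene, was lower in the IP in every lysate. The 18 differences lay between -2.74 and -0.88. Its level in eggs was 1.41, 1.71, 1.93 and 1.04 in the IPs, against 3.80, 3.41, 4.67 and 3.43 in the inputs. In L4 it was 3.14, 2.61 and 2.09 in the IPs, against 4.60, 3.66 and 3.46 in the inputs. IPs and inputs did not overlap at Egg, L1, L2 or L4, and at L3 the highest IP passed the lowest input.

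The mean difference of pdi-3 was -1.50 ± 0.09 (adjusted p = 2.66e-11, limma), and it was called at all 5 stages. The stage values were -2.20 ± 0.18, -1.56 ± 0.17, -1.15 ± 0.20, -1.37 ± 0.18 and -1.22 ± 0.20 from Egg to L4. Without the pairing of IP and input the L2 and L4 calls of pdi-3 did not pass (adjusted p = 0.128 and 0.0846, limma). With columns centred its L4 call did not pass either (adjusted p = 0.0517, limma). The difference between stages of this ratio was not called (F = 5.41, adjusted p = 0.1 in limma). In 3 inputs (Egg replicate 4, L3 replicate 2, L4 replicate 1) the pdi-3 spot itself was close to full scanner scale, and without the 4 lysates the mean difference was -1.47 (adjusted p = 1.71e-08, limma).

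The IP level of pdi-3 differed between stages (F = 6.42, adjusted p = 0.0263 in limma). Together with pdi-1 it made 2 of 9 genes called in the IP, against 10.3% of all features. Its IP averaged 1.52 ± 0.38, 1.28 ± 0.47, 2.55 ± 0.56, 2.75 ± 0.85 and 2.61 ± 0.52 from Egg to L4 (SD). The IPs from L2 on were the higher ones, narrowly without overlap. The lowest of them was 1.95 (L3 replicate 5), against 1.93 for the highest Egg or L1 IP (Egg replicate 4). The call did not pass without Egg replicate 2 or 5 or L1 replicate 5, 10 or 11 (adjusted p from 0.0534 to 0.0802, limma), nor without the 4 lysates (adjusted p = 0.0786, limma).

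Counted by stage, the calls of the 9 genes were mostly lower in the IP. In eggs 5 genes were called lower (11.8% of all features), in L1 larvae 4 (9.83%), in L2 larvae 3 (9.99%), in L3 larvae 2 (12.1%) and in L4 larvae 3 (11.2%). pdi-1 was the 1 gene called higher at L2, L3 and L4, where 6.26%, 8.99% and 8.21% of all features were. At Egg the 5 were pdi-1, pdi-3, pdi-6, crt-1 and hsp-3. The median difference of the 9 genes was -1.04, -0.678, -0.355, 0.0744 and -0.597 from Egg to L4, against -0.0438, 0.0784, -0.284, -0.0696 and -0.154 for all features.

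dpy-18 and phy-2 encode alpha subunits of prolyl 4-hydroxylase, the enzyme that hydroxylates prolines of collagen and so stabilises its triple helix. phy-2 was lower in the IP in 17 of 18 lysates, and the exception, at 0.81, was Egg replicate 4, 1 of the 4 lysates set apart. Its mean difference was -0.76 ± 0.18 (adjusted p = 0.00182, limma), and -0.85 without those 4 lysates (adjusted p = 0.00136, limma). That call did not pass in lysates with 1 title spelling (-0.64, adjusted p = 0.117) or when the pairing of IP and input was not used (adjusted p = 0.0568, limma). At L2 the differences were -1.49, -0.42 and -1.95, and the fitted value -1.29 ± 0.42 was called (adjusted p = 0.0412, limma). That stage call did not pass without Egg replicate 5, L1 replicate 5, 10 or 11, or L2 replicate 1 or 3 (adjusted p from 0.0512 to 0.262, limma). The phy-2 probe was dim, with its lowest IP at 4.28 times the noise of its column.

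dpy-18 was not called at any stage or over their mean (-0.21 ± 0.16, adjusted p = 0.288 in limma). Its difference was above 0 in all 4 of the lysates set apart, from 0.30 to 1.57, and above 0 in 1 of the other 14, whose range was -0.88 to 0.01. Without the 4 lysates its mean difference was -0.49 ± 0.10 and was called (adjusted p = 0.00111, limma). Pooled over stages, the input was -0.46 to 0.45 in the 4 and 0.02 to 2.37 in the other 14. The IP was 0.03 to 1.11 in the 4 and 0.03 to 1.70 in the others. Within its stage, the input of each of the 4 lay below those of the lysates not set apart. The IP did so in Egg replicate 4 (0.33) and L4 replicate 1 (0.03), but not in L3 replicates 2 and 3 (0.76 and 1.11).

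In total RNA both hydroxylase genes had low values at L1, and also in lysates set apart at other stages. The phy-2 input was -0.71, -0.37, -3.59 and -1.07 at Egg, -2.83, -2.31, -2.97 and -3.0 at L1, and -0.52, -0.86 and -0.82 at L2. At L3 it was -0.35, -1.98, -1.98 and -0.84, and at L4 -2.53, -0.37 and -1.07. The 4 lysates set apart supplied the lowest value at Egg and at L4 and both low values at L3. With all lysates the difference between stages was not called (F = 2.73, adjusted p = 0.161 in limma). Without the 4 lysates it was (F = 18.86, adjusted p = 0.000465), with L1 minus Egg at -2.03 (adjusted p = 0.00025) and L2 minus L1 at 2.02 (adjusted p = 0.00201, all limma). Without Egg replicate 4 alone it was called too (F = 6.01, adjusted p = 0.0179, limma). In whole animals fewer cells of a type and less RNA per cell cannot be told apart.

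The dpy-18 input was 1.89, 2.37, -0.26 and 0.83 at Egg, 0.02, 0.33, 0.33 and 0.58 at L1, and 1.46, 1.03 and 1.43 at L2. At L3 it was 2.0, 0.45, -0.46 and 1.07, and at L4 -0.27, 1.19 and 1.18. L1 lay below L2 without overlap and below 3 of the 4 Egg inputs, but Egg, L3 and L4 each held 1 value below every L1 input, all from lysates set apart. The difference between stages was not called with all lysates (F = 1.12, adjusted p = 0.528 in limma) and was called without the 4 (F = 5.15, adjusted p = 0.0392 in limma), where L1 minus Egg was -1.40 (adjusted p = 0.00728, limma). In the IP that step was then called too (-1.13, adjusted p = 0.0426, limma).

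**Figure D3:**
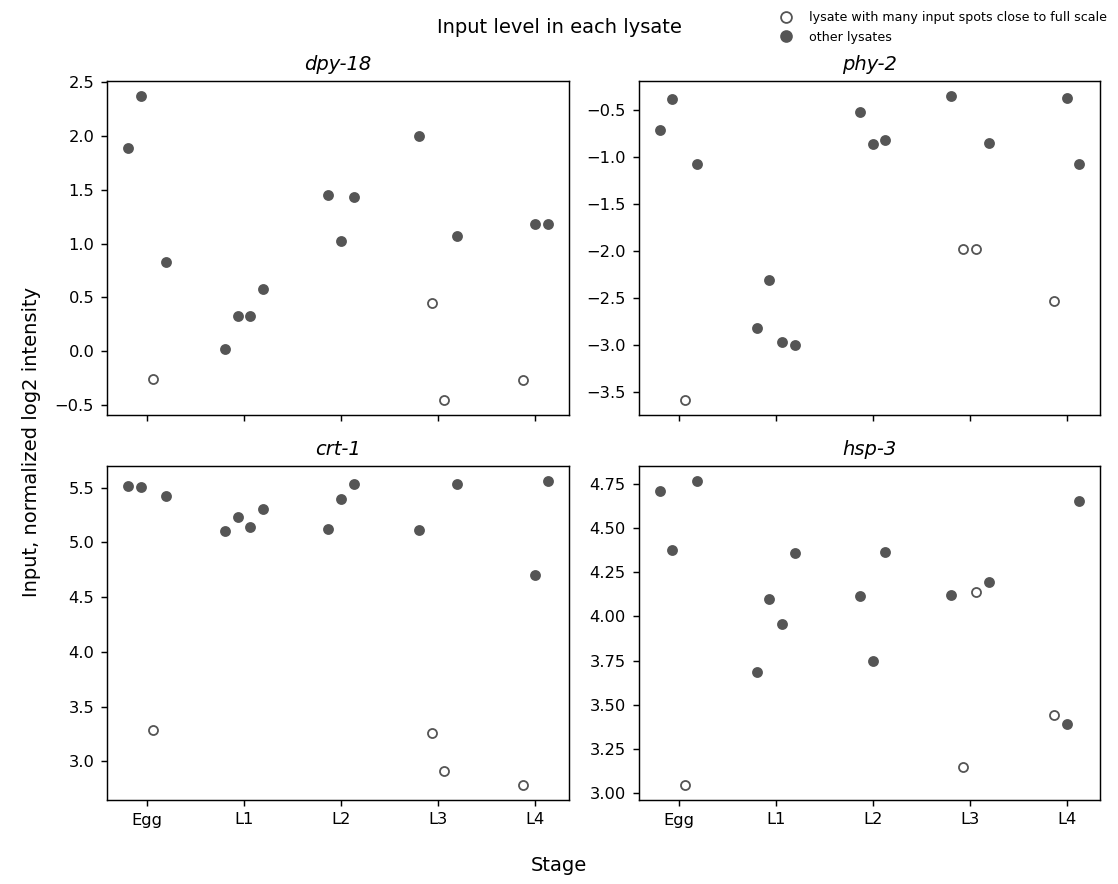
Normalized log2 intensity in the input (vertical axis) of dpy-18, phy-2, crt-1 and hsp-3 in each lysate by stage (horizontal axis). Open points are the 4 lysates whose input had many spots close to full scanner scale. The 4 open points of crt-1 lie between 2.79 and 3.29, below all 14 others.

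cnx-1 encodes calnexin, the membrane-bound lectin chaperone. Its IP to input difference changed sign between stages. It was -1.0, -0.79, -1.32 and -0.84 in eggs, and 0.91, 0.61, 0.65 and 0.98 in L1. In L2 it was 0.49, 0.64 and 0.22, in L3 -1.19, 0.59, 0.58 and 0.09, and in L4 -1.66, -2.71 and 0.05. All Egg lysates lay below 0 and all L1 and L2 lysates above it, while L3 and L4 held both signs.

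The fitted differences of cnx-1 were -0.81 ± 0.30, 0.79 ± 0.29, 0.57 ± 0.34, 0.20 ± 0.30 and -1.32 ± 0.34 from Egg to L4. Of these, L4 alone was called (adjusted p = 0.00894, limma), while Egg and L1 had adjusted p = 0.0621 and 0.0589. Egg was called under 7 of 31 alternatives and L1 under 8 of 31. The L4 call did not pass without L4 replicate 3 (-0.80, adjusted p = 0.165, limma). It also did not pass with columns centred or without the pairing of IP and input (adjusted p = 0.0688 and 0.234, limma). The lowest IP of cnx-1 at L4 was 3.44 times the noise of its column. The ratio differed between stages (F = 8.19, adjusted p = 0.0266 in limma), and L1 minus Egg was 1.59 ± 0.42 (adjusted p = 0.0498, limma), 1 of 9 genes where 1.46% of all features were called higher. The F test did not pass without Egg replicate 2, L1 replicate 5 or 10, L2 replicate 1 or 3, or L4 replicate 1 (adjusted p from 0.0538 to 0.0802, limma), nor without the 4 lysates (adjusted p = 0.0791, limma). The L1 minus Egg step, close to the threshold, did not pass without any 1 of 14 lysates (adjusted p from 0.0542 to 0.213, limma), nor without the 4 (1.55, adjusted p = 0.0749, limma).

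In the input cnx-1 was the 1 gene of 9 with a called difference between stages (F = 4.60, adjusted p = 0.0429 in limma), where 25% of all features were called. Its input averaged 1.49 ± 0.88, 0.09 ± 0.48, 0.40 ± 0.31, -0.33 ± 0.87 and -0.10 ± 0.61 from Egg to L4 (SD). L1 minus Egg was -1.32 ± 0.46 (adjusted p = 0.0482, limma). The F test did not pass without any 1 of 14 lysates (adjusted p from 0.0524 to 0.166), nor L1 minus Egg without any 1 of 13 (adjusted p from 0.0524 to 0.172, limma). L1 minus Egg also did not pass for values as deposited, with loess or without the trend (adjusted p = 0.0597, 0.0545 and 0.0717, limma). The same held with the IP in Cy3 (adjusted p = 0.404, limma). With titles spelled tot, which keep 1 L1 lysate, L1 minus Egg was -1.69. Without the 4 lysates set apart the F was 15.26 (adjusted p = 0.00104, limma) and L1 minus Egg -1.75 (adjusted p = 0.000197, limma).

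pdi-6 was the other gene with a called step in total RNA, with L1 minus Egg at -0.87 ± 0.28 (adjusted p = 0.0295, limma). Thus 2 of 9 genes fell in L1 relative to eggs, against 11.5% of all features. The pdi-6 input was 2.91, 2.79, 2.74 and 3.17 in L1, against 3.74, 3.43, 4.30 and 3.96 in eggs, without overlap. The call did not pass without Egg replicate 4 or 5 or L1 replicate 5 or 10 (adjusted p = 0.0632, 0.0547, 0.111 and 0.118, limma). Under the other scalings it did not pass either: values as deposited, columns centred and loess (adjusted p = 0.0939, 0.121 and 0.0752, limma). The same held without the trend (adjusted p = 0.0711, limma). With titles spelled tot, which keep 1 L1 lysate, L1 minus Egg of pdi-6 was -0.45. The inputs of pdi-3 in L1, 2.66 to 3.15, also lay below all Egg inputs, 3.41 to 4.67, with L1 minus Egg at -0.98 and not called (adjusted p = 0.0594, limma). Egg replicate 4, 1 of the lysates set apart, holds the highest of those Egg inputs. With the 4 left out the L1 minus Egg difference was -0.68 and called (adjusted p = 0.0377), as was L2 minus L1 at 0.91 (adjusted p = 0.0476) and the F over the stages (F = 5.23, adjusted p = 0.0376, limma).

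crt-1 encodes calreticulin, the soluble lectin chaperone that also stores calcium. It was lower in the IP in 16 of 18 lysates, by -1.0 ± 0.20 over the mean of the stages (adjusted p = 0.000349, limma). In eggs the IP was 4.09, 4.12, 3.60 and 2.42, against 5.51, 5.50, 3.29 and 5.42 in the inputs. In L1 it was 4.30, 2.88, 3.27 and 4.58, against 5.10, 5.23, 5.14 and 5.30 in the inputs. IPs and inputs did not overlap at L1 or L2.

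Both lysates in which crt-1 was above 0 (Egg replicate 4 at 0.31 and L3 replicate 3 at 0.39) were among the 4 set apart. The crt-1 input was 2.79 to 3.29 in those 4 and 4.70 to 5.56 in the other 14, while its IP was 2.41 to 3.60 in the 4 and 2.42 to 4.63 in the others. Without the 4 lysates the mean difference was -1.26 ± 0.16 (adjusted p = 1.33e-05, limma). By stage crt-1 was called at Egg (-1.26 ± 0.41, adjusted p = 0.0318) and L1 (-1.44 ± 0.40, adjusted p = 0.0112, limma). The Egg call did not pass without Egg replicate 1, 2 or 5 (adjusted p = 0.0771, 0.206 and 0.215), nor the L1 call without L1 replicate 5 or 10 (adjusted p = 0.0909 and 0.0592, limma).

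hsp-3 and hsp-4 encode the BiP-type Hsp70 chaperones of the ER lumen, and hsp-4 is the one widely used to report the unfolded protein response. hsp-3 was lower in the IP in all 18 lysates, with differences between -2.44 and -0.54, and its mean difference was -1.15 ± 0.12 (adjusted p = 1.39e-07, limma). hsp-4 had differences between -0.40 and 1.16, above 0 in 8 of 18 lysates, and a mean difference of 0.06 ± 0.09 that was not called (adjusted p = 0.608, limma). The difference between the genes was not tested.

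hsp-3 was called lower at every stage, with -1.40 ± 0.25, -0.88 ± 0.24, -1.12 ± 0.28, -1.38 ± 0.25 and -0.96 ± 0.28 from Egg to L4 (adjusted p = 0.00028, 0.0107, 0.00856, 0.000376 and 0.0193, limma). In L3 its level was 2.86, 1.77, 2.13 and 2.95 in the IPs, against 4.12, 3.15, 4.14 and 4.20 in the inputs, with no overlap. The L1 call did not pass without L1 replicate 5 (-0.76, adjusted p = 0.0784), the L2 call without L2 replicate 1 or 2 (adjusted p = 0.0606 and 0.0728), or the L4 call without L4 replicate 3 or 10 (adjusted p = 0.0701 and 0.237, all limma). With columns centred the L1 and L4 calls did not pass (adjusted p = 0.519 and 0.188, limma). Without the pairing of IP and input the L1, L2 and L4 calls did not (adjusted p = 0.128, 0.123 and 0.187, limma). A change of hsp-3 between stages was called neither in the ratio (F = 0.92, adjusted p = 0.717) nor in the input (F = 0.30, adjusted p = 0.911, limma).

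hsp-4 was near its input at each stage, with fitted differences of -0.11 ± 0.19, 0.19 ± 0.18, -0.20 ± 0.21, 0.11 ± 0.19 and 0.34 ± 0.21 from Egg to L4, none called. IPs and inputs overlapped at all 5 stages. Its level lay between 3.92 and 5.15 in the IPs and between 3.83 and 4.95 in the inputs. The hsp-4 spot was close to full scanner scale in the input of Egg replicate 4 and in the IP of L3 replicate 2.

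Other genes of the pathway, taken from lists, are counted over the mean of the 5 stages beside the same 25.1% of features lower and 19.2% higher. Of 18 other measured ER folding genes, 4 were higher in the IP and 9 lower, with a median difference of -0.35. The highest were cyn-6 (3.40 ± 0.17), a cyclophilin-type prolyl isomerase, stc-1 (1.02 ± 0.11), an Hsp70-like protein, and fkb-4 (0.80 ± 0.14), an FK506-binding prolyl isomerase. The lowest were cyn-5 (-2.19 ± 0.10), a cyclophilin, fkb-7 (-1.87 ± 0.17) and uggt-1 (-1.60 ± 0.21), the glucosyltransferase that returns misfolded glycoproteins to the lectin chaperones. The cyclophilins cyn-5 and cyn-6 thus stood at opposite ends of that list.

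Of 7 measured genes that modify or process collagen outside the listed enzymes, 4 were higher in the IP and 1 lower, with a median of 1.31. mlt-7, a peroxidase needed for cuticle cross-linking, was at 2.12 ± 0.14, dpy-31, a procollagen C-proteinase, at 1.84 ± 0.15 and tsp-15, a tetraspanin, at 1.58 ± 0.15. dpy-5, a subtilisin-like proprotein convertase, was at -1.60 ± 0.18. Of 17 measured body shape and basement membrane collagens, 1 was higher and 10 were lower, with a median of -1.16. dpy-2 was at 0.80 ± 0.15, against dpy-4 at -1.87 ± 0.25, dpy-13 at -1.74 ± 0.16 and rol-6 at -1.59 ± 0.16.

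Of 17 measured genes of ER translocation and N-glycosylation, 2 were higher in the IP and 10 lower, with a median of -0.51. dad-1, an oligosaccharyltransferase subunit, was at 1.54 ± 0.18 and ostd-1, another, at 0.36 ± 0.11. spcs-3, a signal peptidase subunit, was at -1.60 ± 0.09, and the translocon-associated trap-3 and trap-4 were at -1.60 ± 0.11 and -1.23 ± 0.13. Of 13 measured genes of the unfolded protein response and ER degradation, 2 were higher and 7 lower, with a median of -0.45. hrdl-1, related to an ER ubiquitin ligase, was at 1.03 ± 0.09 and atf-6, an ER stress sensor, at 0.36 ± 0.12, against rnf-5 at -1.29 ± 0.34, cdc-48.2 at -1.10 ± 0.17 and cup-2 at -1.0 ± 0.21.

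Of 6 measured Hsp70, Hsp90 and Hsp60 genes of the cytosol and mitochondria, 0 were higher and 3 lower, with a median of -0.55. hsp-90 was at -1.29 ± 0.12, hsp-6 at -1.18 ± 0.31 and hsp-60 at -0.86 ± 0.22. All genes named from these lists were called in limma. The call of fkb-4, atf-6, ostd-1, dpy-2, uggt-1, hsp-6 or hsp-60 did not pass under at least 1 other processing.

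**Figure D4:**
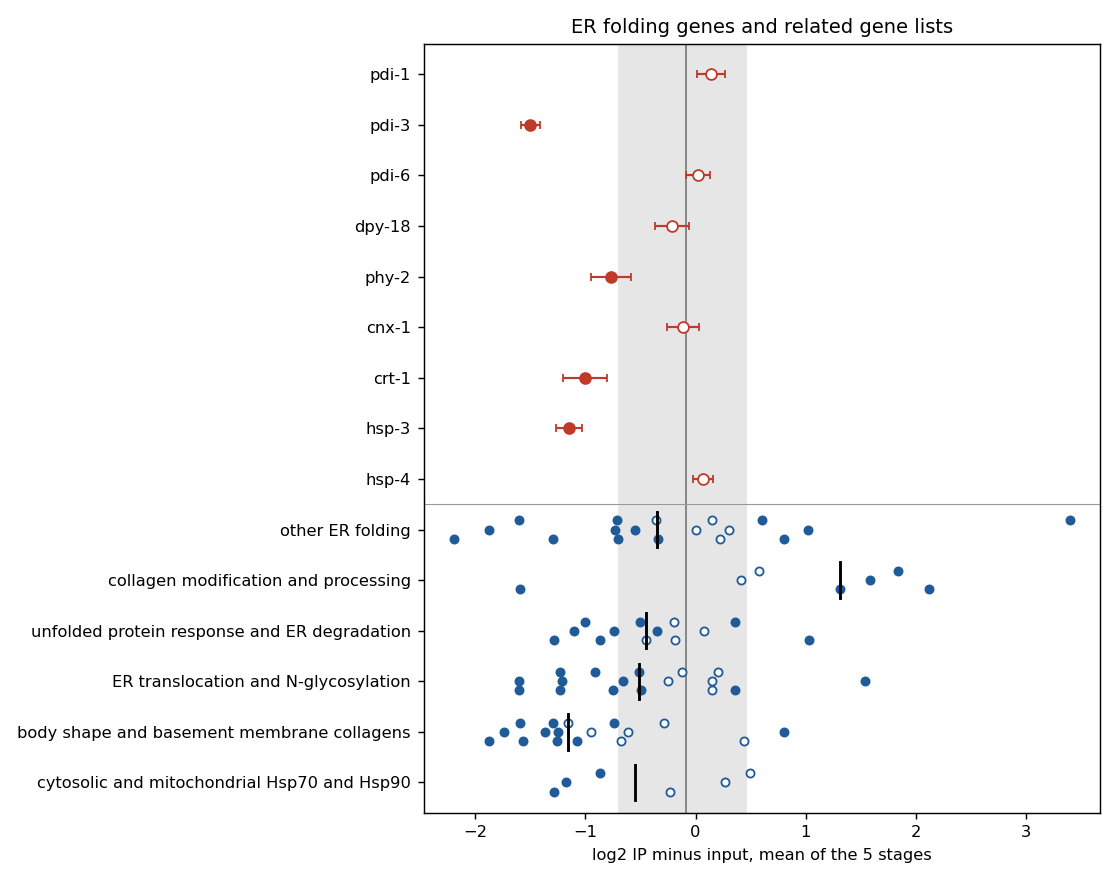
log2 IP minus input over the mean of the 5 stages (horizontal axis) for the 9 measured ER folding genes (red, ± standard error) and for genes of 6 related lists (blue points, black bar at the list median). Filled points were called, open ones were not, and the grey band and line are the quartiles and median of all 15732 features. 4 of the 9 genes are filled, all on the left.

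Genes with a profile like the mean of the 9 genes were picked by correlation over the 18 lysates, out of 6609 named genes with a value in every sample. Pairs of the 9 genes had r from -0.345 to 0.719 for the IP minus input difference, so that mean is not the profile of each. Genes with a wide spread, such as pdi-1 (SD 1.67), weigh more in it than hsp-4 (SD 0.38). The IP minus input difference most like the mean of the 9 genes was that of snr-3 (r = 0.926), followed by cyn-11 (0.919), C17E4.10 (0.898), mag-1 (0.884) and his-45 (0.873). The input level most like that of their mean was dif-1 (r = 0.932), followed by noah-2 (0.924), R02F11.1 (0.911), F11E6.8 (0.905) and ubh-2 (0.903). The lysates share arrays, stages and dyes, so these are descriptions only.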

How the data were processed

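The authors deposited 36 columns of intensity, on a linear scale and background-subtracted as judged from values below 0, from a spotted oligonucleotide array read in 2 colours. Each sample is 1 dye channel, with Cy3 on the IP in 12 lysates and Cy5 in the other 6. Column means were 0.975 to 1.13. The scanner, image software and scaling are not given in the sources used here.

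Values of 0 or less (5.75% to 20.3% of spots) were set to missing. log2 of the rest was quantile normalized over the 36 columns. Of 23232 spots, 17461 carried a symbol in the platform annotation. Probes of a gene were averaged, and a feature was tested with at least 2 complete lysates per stage, giving 15732 features (12061 named genes, 3671 unnamed probes). A spot was above background at 3 times the noise of its column. Spots over 65000 scanner steps were taken as close to full scale.

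limma 3.58.1 (R 4.3.3) was fitted with a trend to the IP minus input difference of the 18 lysates, with stage and dye terms (12 residual and 7.46 prior degrees of freedom), and to the inputs and IPs alone. The pairing follows the series' design text, which gives each IP its own input. IP and input of a lysate deviated together from their stage means in 18 of 18 lysates (r 0.246 to 0.605). The fit was tested on simulated data, where most simulated differences of 2 log2 units were called but most of 1 unit were not. A stricter criterion, that most differences of either size be called, was set first, was not met and was relaxed, so a difference near 1 that was not called does not show that there was none. Alternatives were other normalizations, an offset of 0.1, probe rules, no trend, no dye term, no block, 1 dye orientation, 1 spelling of the titles, and each lysate left out. The 1 title spelling was tot for the input. It keeps 1 L1 lysate (replicate 2), so comparisons with L1 rest on that lysate there. 2 more alternatives were added after seeing the data: spots over 65000 steps left out, and the 4 lysates with over 50 such input spots left out. Tables and figures used Python 3.11.15, pandas 2.3.3, numpy 2.4.6 and matplotlib 3.10.9.

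The genes and lists were chosen with earlier results of these data known. Named genes are every member with a probe, up to 3 highest and 3 lowest called genes of each other list, and the 5 named genes most correlated with the members' mean.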

Additional observations from a re-analysis of the deposited data

Results flagged for a closer look

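Some results stood out by fixed criteria. In groups of 4 samples, 81 were examined and 2 held a sample far from the other 3. Chance gives about 1 in 20, so 2 of 81 is not more than chance gives. The crt-1 input of Egg replicate 4 was 3.289, against 5.42 to 5.51 in the other Egg inputs. The hsp-3 input of L3 replicate 2 was 3.146, against 4.12 to 4.20 in the other L3 inputs. Both lysates belong to the 4 whose input had many spots close to full scanner scale, and the part of that in these values was not tested.

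Differences of the IP to input ratio between stages passed limma's test for 3 genes. For pdi-1 the F over the stages was 43.81 and L2 minus L1 was 2.464. For pdi-6 the F was 8.405. For cnx-1 the F was 8.188 and L1 minus Egg was 1.592. The calls of pdi-6 and cnx-1 depend on single lysates. So does that of the pdi-1 step, which did not pass without L2 replicate 1 or L2 replicate 2 (adjusted p = 0.0598 and 0.0772, limma).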

How the results depend on the processing

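Counts of called genes are given as they stood over all lysates: 4 for the mean of the stages, 20 for gene and stage pairs, 3 for the ratio across stages, 1 for the input and 2 for the IP across stages. With columns centred in place of quantile normalized the pairs were 11, the ratio 1, the input 2 and the IP 1. Without the trend the ratio was 1, the input 0 and the IP 1, and without the dye term the input was 2. With no replicate block, so that the pairing of IP and input is not used, the pairs were 8 and the ratio 1, and 3 genes were called at the mean (phy-2 did not pass, adjusted p = 0.0568 in limma). In lysates with 1 title spelling 3 genes were called at the mean (phy-2 did not pass, -0.64, adjusted p = 0.117), the pairs were 11, the ratio 1, the input 0 and the IP 1, and in lysates with the IP in Cy3 they were 12, 1, 0 and 1. With spots over 65000 steps left out the input was 2. Without the 4 lysates the input was 4 and the IP 1. Leaving out each lysate in turn gave 4 at the mean every time, 17 to 23 pairs, 1 to 3 for the ratio, 0 to 3 for the input and 1 to 3 for the IP. Shares of all features called under these settings are not given here for the pairs, ratio, input or IP. Changes in those counts are therefore not read as results about the 9 genes. pdi-1 at L1 did not pass with columns centred (-1.08, adjusted p = 0.119, limma), and with titles spelled tot its L1 value, from 1 lysate, was -1.64. Its L2 and L4 values did not pass with columns centred (0.43 and 0.71), with no replicate block, or with the IP in Cy3 (0.83 and 0.29), nor did the L4 value in 1 title spelling (0.52). Its L2 minus L1 step, at 2.46, did not pass with columns centred (1.51), no trend, no replicate block or the IP in Cy3 (2.16). With titles spelled tot, and so 1 L1 lysate, that step was 2.71. Of 6641 comparisons of a value with an alternative, 6175 kept direction and side of the threshold, 190 no longer passed, 56 newly passed and 220 otherwise moved. pdi-3, crt-1 and hsp-3 were called at the mean under all 32 alternatives. Over all features 43.3% of mean calls were higher, against 51.6% for values as deposited, where the median was 0.135, 37.8% with columns centred and 48.7% with loess. The medians of the 9 genes and of the 6 lists kept their sign under these scalings, while the median of the 9 genes ranged from -0.45 with columns centred to -0.0848 with loess. The cause of these changes was not tested. The lowest IP signals over noise were 3.44 for cnx-1 and 4.28 for phy-2, and what that limits was not tested.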

Other observations

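cyn-9, a cyclophilin gene next to pdi-1 on chromosome III and known as its operon partner, was looked up after the values of pdi-1 had been seen. Its IP minus input difference was 0.34 ± 0.68, 0.67 ± 0.65, -0.66 ± 0.76, -0.57 ± 0.68 and -0.01 ± 0.76 from Egg to L4. None was called (limma), and the F test over the stages gave adjusted p = 0.784. Its standard errors were more than those of pdi-1 at every stage, and the difference between the genes was not tested.

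The 5 named genes whose IP minus input difference correlated best with that of pdi-1 over the 18 lysates, also picked after its values were seen, were lgg-2 (r = 0.904), rsp-8 (0.9), hpo-18 (0.897), T20B12.7 (0.881) and ubh-2 (0.879).

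Of 3 marker lists for staging, 8 early embryo genes had mean input levels of -2.04 to -0.617 over the larval stages and -0.971 to -0.661 in eggs, which overlapped. Of 5 yolk genes the mean input level was -2.78 to 1.21 at L4 and -5.37 to -2.56 before it. Over the mean of the stages, 3 of the embryo genes were called higher in the IP and 2 lower, 0 of the sperm genes higher and 4 lower, and 0 of the yolk genes either way.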
